A study of Mus musculus with 703 samples.

Results

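The 10 genes described here carry glucose into the muscle fibre, store it as glycogen or break it down to lactate: Slc2a4, Hk2, Gys1, Pygm, Pfkm, Pfkfb1, Pfkfb3, Aldoa, Pkm and Ldha. They were taken by gene symbol, not by a filter on measured values, from the 19088 genes of the expression table, and each symbol named 1 gene. The choice was made with earlier results of these data known. Their RNA was measured by RNA-seq in the gastrocnemius, a calf muscle made mostly of fast-twitch fibres, with 1 library per mouse. The mice were CC-RIX animals, that is, F1 crosses between inbred lines of the Collaborative Cross, a panel that mixes the genomes of 8 founder strains, and 20 such strains made from 19 parental lines were used. All animals of 1 strain and sex therefore have almost the same genome, and a parental line can recur in several strains. From 6 weeks of age the mice ate a diet with 10% or 44% of its energy as fat, the second also high in sucrose and both with added fiber. Untreated animals were 236 females and 233 males, of which 235 ate the 44% fat diet and the rest the 10% fat diet. Metformin, an oral drug that lowers blood glucose, was given at 5 mg per mL of drinking water from 7 months of age to 57 females and 59 males on the 10% fat diet and to 59 females and 59 males on the 44% fat diet. All treated animals belonged to the cohort kept to 12 months, whereas untreated animals were collected at 6 or 12 months and the labels give no age for any single animal, so metformin and age cannot be told apart.

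In muscle, insulin and contraction bring the glucose transporter GLUT4, the product of Slc2a4, to the fibre surface, and hexokinase 2, encoded by Hk2, traps the sugar by phosphorylating it. Glycogen synthase 1 (Gys1) and the muscle glycogen phosphorylase (Pygm) build and break down glycogen, and the phosphofructokinase of muscle (Pfkm) commits sugar phosphate to glycolysis, helped by fructose 2,6-bisphosphate, whose level is set by the Pfkfb enzymes. Aldolase A (Aldoa), pyruvate kinase (Pkm) and lactate dehydrogenase A (Ldha) act further down the chain, which fast-twitch fibres hold at very high levels.

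Total expected counts per library ran from 27.4 M to 96.1 M with a median of 47.9 M. The level of Xist, an X-chromosome gene, went against the sex label in 15 libraries. In 4 libraries expression correlated best with the mean of a strain other than the labelled one. High levels of liver transcripts were found in 8 libraries. All of these were kept, and counts of called genes were recomputed without them. No pair of libraries held identical values. The libraries also fall into a lower range of sequencing identifiers (400 libraries of untreated and 144 of treated animals) and an upper range (69 libraries of untreated and 90 of treated animals), so range entered each model, and the differences by diet, metformin, sex and strain were recomputed within each range. Interactions with diet or metformin, variance shares, line comparisons and correlations were recomputed in the lower range only, and sex by strain in neither. Each animal is a separate sample. According to the paper, however, housing and diet were assigned by litter. No model held litter or cage, so animals sharing them were counted as independent and p-values may be too small. The p-values measure the spread between animals that is left after strain, sex, diet and range as additive terms. That spread includes any difference of the sexes between strains except where that interaction was fitted. In untreated animals it also includes any difference between ages, which no model could hold because the labels give none.

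Promoter sequences of 4 genes are shown: Ldha because it held the most copies of a short motif, Pkm and Pfkfb3 because their levels were the ones higher in animals given metformin, and Pfkfb1 because its level turned most on strain. RefSeq start sites on GRCm38.p6 gave 20 windows, from 250 bases before to 50 bases after a start, for 9 of the 10 genes; Slc2a4 had none in the table used. Capitals mark ACGTG, the core letters of the hypoxia response element, read on either strand, and the same letters stand inside CACGTG, the E-box read by other factors, which holds ACGTG once on each strand.
Ldha promoter window, chr7:46845554-46845853 (plus strand): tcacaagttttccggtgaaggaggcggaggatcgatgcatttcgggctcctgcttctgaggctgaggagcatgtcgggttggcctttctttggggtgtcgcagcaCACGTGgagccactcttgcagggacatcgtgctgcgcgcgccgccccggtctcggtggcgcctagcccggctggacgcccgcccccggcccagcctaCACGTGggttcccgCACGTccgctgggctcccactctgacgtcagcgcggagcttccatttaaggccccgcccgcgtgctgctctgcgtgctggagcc
Pkm promoter window, chr9:59656977-59657276 (plus strand): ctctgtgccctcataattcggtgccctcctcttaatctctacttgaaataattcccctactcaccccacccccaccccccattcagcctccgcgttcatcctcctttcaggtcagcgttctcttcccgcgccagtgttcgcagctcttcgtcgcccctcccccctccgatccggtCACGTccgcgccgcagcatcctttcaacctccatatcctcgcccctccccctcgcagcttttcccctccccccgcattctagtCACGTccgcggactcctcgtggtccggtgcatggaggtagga
Pfkfb3 promoter window, chr2:11502041-11502340 (minus strand): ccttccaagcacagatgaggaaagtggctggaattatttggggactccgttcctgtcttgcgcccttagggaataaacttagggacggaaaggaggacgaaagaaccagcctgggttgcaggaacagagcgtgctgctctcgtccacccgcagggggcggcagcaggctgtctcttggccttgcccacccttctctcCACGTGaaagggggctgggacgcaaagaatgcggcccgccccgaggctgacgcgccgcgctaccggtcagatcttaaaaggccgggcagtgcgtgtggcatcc
ACGTG was in 10 of the 20 windows, belonging to 7 genes, and in 19.6% of the 32817 windows of all genes. CACGTG was in 3 windows, against 7.15% of all windows. In the Pfkfb1 window below, capitals mark the only match among the 20 windows to the MEF2 motif, named for a family of muscle transcription factors and found in 3.19% of all windows.
Pfkfb1 promoter window, chrX:150589666-150589965 (plus strand): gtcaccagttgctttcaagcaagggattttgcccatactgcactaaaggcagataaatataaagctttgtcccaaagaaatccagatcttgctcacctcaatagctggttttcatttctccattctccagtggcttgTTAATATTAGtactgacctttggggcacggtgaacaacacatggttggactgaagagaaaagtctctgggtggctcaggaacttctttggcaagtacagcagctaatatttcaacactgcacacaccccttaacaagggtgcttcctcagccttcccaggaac
Some windows overlap, because a gene can have several starts, and a match describes letters only.

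Levels are given in counts-per-million (CPM), scaled by the TMM method, and compared between genes per kilobase of exon. Of the 10 genes, Aldoa had the highest level, 3391 CPM per kb, which ranked 23 among the 17668 genes with a level and a length. Pygm followed at 1783 CPM per kb, then Pfkm at 796, Ldha at 556 and Pkm at 398, with ranks from 34 to 64. The transporter Slc2a4 stood at 97.5 CPM per kb and Gys1 at 73.5. Pfkfb3, the inducible form of the bifunctional enzyme, and Hk2 were close together at 48.8 and 47.9 CPM per kb. Pfkfb1, the form named for liver and muscle, was lowest at 6.84 CPM per kb and ranked 3038. The enzymes of the main chain were thus among the most abundant transcripts of the tissue, and the transporter, the synthase and the regulators were lower. Reads shared by Aldoa, Pkm or Ldha with their processed pseudogenes were divided between the copies by the authors' counting, so these 3 levels are less certain.

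**Figure D1:**
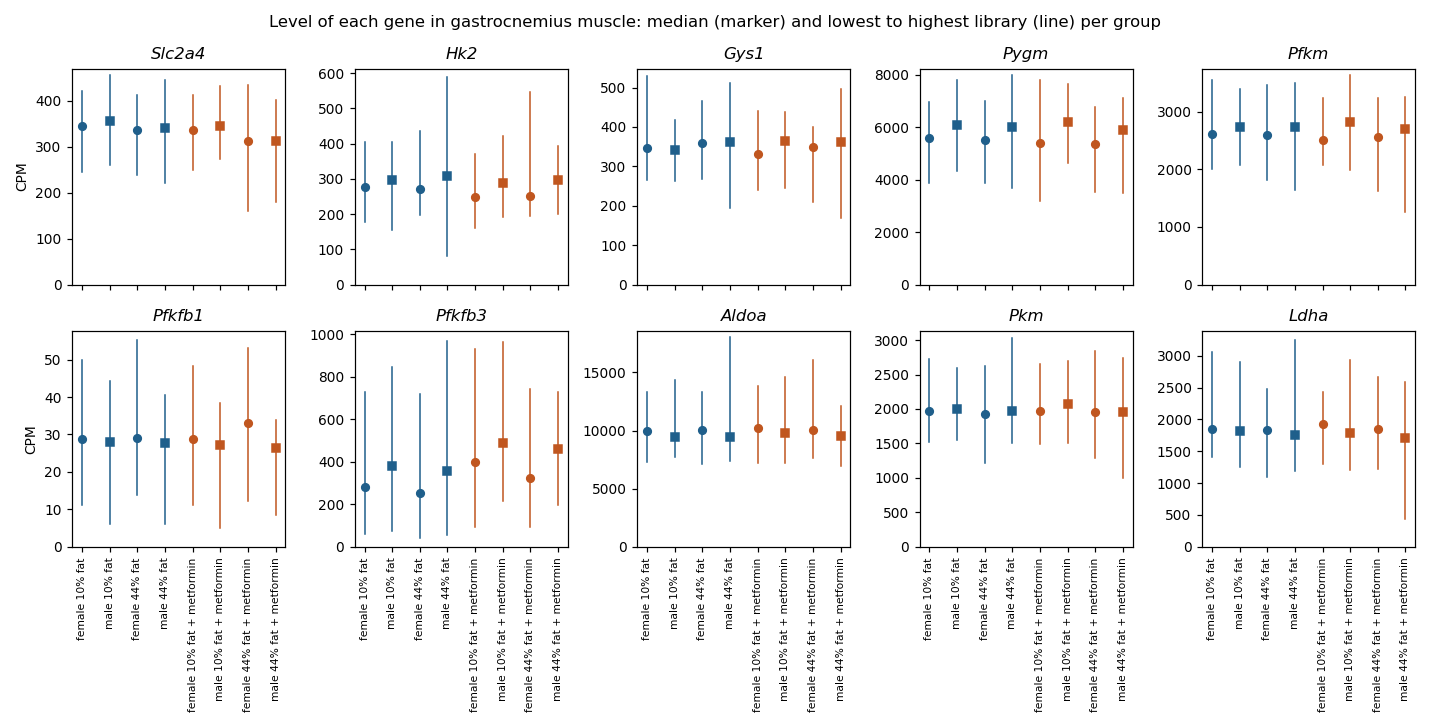
CPM of each gene (vertical linear axis from 0, 1 panel per gene) in the 8 groups of sex, diet and treatment, where a marker is the median, a line joins the lowest and highest library, and orange marks metformin. The groups overlap for every gene, and Pfkfb3 runs from 42.1 to 970 CPM over all animals whereas Gys1 stays between 170 and 530 CPM.

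How far animals differed varied widely among the 10 genes. Pfkfb3 had a coefficient of variation over all libraries of 46.6% and Pfkfb1 of 30.0%. Hk2 came next at 18.5% and Ldha at 14.8%. The other 6 genes lay between 11.01% (Pfkm) and 12.8% (Aldoa). Among untreated animals, after strain, sex, diet and range as additive terms, the SD of Pfkfb3 was 0.695 on the log2 scale, at the 99.3 percentile of 7116 genes compared, against a median of 0.168. That of Pfkm was 0.122, at the 11.5 percentile. With a term for sex by strain, added after the data were seen, the SD was 0.679 for Pfkfb3 and 0.116 for Pfkm, while that of Pfkfb1 went from 0.376 to 0.251. Pfkfb3 thus stood near the top of all genes in the spread between animals of 1 strain and sex, and Pfkm near the bottom.

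Strain changed all 10 genes (edgeR adjusted p from 2.3e-44 for Pfkfb1 to 1.5e-08 for Aldoa), as it did 93.2% of all genes tested. In the upper identifier range alone 7 passed, and Slc2a4 (adjusted p = 0.18), Gys1 (adjusted p = 0.086) and Pfkfb3 (adjusted p = 0.41) did not. Strain accounted for 48.4% of the variance of Pfkfb1, 37.9% of Ldha, 36.9% of Hk2 and 34.9% of Pkm, against a median of 15.4% over all genes. The share was 23.3% for Pfkm and 23.2% for Gys1. It was lowest for Aldoa, at 11.3%, and Pfkfb3, at 13.1%. For Pfkfb3 the low share stands beside the wide spread within strains, since its highest adjusted strain mean was 2.29 times its lowest, the second widest ratio of the 10 genes. In bulk muscle, fewer cells or fibres of a type and less RNA per cell cannot be told apart, here and in all that follows.

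Adjusted for sex, diet and range, the mean level of Slc2a4 (ENSMUSG00000018566, chromosome 11, 69942539 to 69948188, minus strand of GRCm38) ran from 311 CPM in (CC011/UncJ x CC027/GeniUncJ)F1 to 376 CPM in (CC042/GeniUncJ x CC060/UncJ)F1, a ratio of 1.21. Hk2 (ENSMUSG00000000628, chromosome 6, 82725025 to 82774454, minus strand) spread more, by a ratio of 1.71, from 208 CPM in (CC075/UncJ x CC042/GeniUncJ)F1 to 357 CPM in (CC002/UncJ x CC043/GeniUncJ)F1. The 20 Hk2 means formed a graded series in which 1 of the 19 steps between neighbours exceeded the within-strain SD of 0.2 on the log2 scale.

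Among the glycogen enzymes, Gys1 (ENSMUSG00000003865, chromosome 7, 45434839 to 45456617, plus strand) ran from 325 CPM in (CC051/TauUncJ x CC060/UncJ)F1 to 393 CPM in (CC002/UncJ x CC043/GeniUncJ)F1. Pygm (ENSMUSG00000032648, chromosome 19, 6384399 to 6398459, plus strand) ran from 5157 CPM in (CC019/TauUncJ x CC042/GeniUncJ)F1 to 6396 CPM in (CC012/GeniUncJ x CC002/UncJ)F1. For both genes no step between neighbouring strains exceeded the within-strain SD, so neighbours in the order were not separated beyond the spread of animals.

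The strain (CC012/GeniUncJ x CC002/UncJ)F1, highest for Pygm, was also highest for Pfkm, at 3087 CPM, for Aldoa, at 10660 CPM, and for Pkm, at 2312 CPM. Pfkm (ENSMUSG00000033065, chromosome 15, 98092589 to 98132447, plus strand) had a ratio of highest to lowest strain mean of 1.26, and 1 of its 19 steps exceeded the within-strain SD of 0.12. Aldoa (ENSMUSG00000030695, chromosome 7, 126795234 to 126809108, minus strand) was lowest in (CC043/GeniUncJ x CC042/GeniUncJ)F1, at 8762 CPM, where Pkm (ENSMUSG00000032294, chromosome 9, 59656368 to 59679375, plus strand) was also lowest, at 1691 CPM. Ldha (ENSMUSG00000063229, chromosome 7, 46841475 to 46855627, plus strand) had its highest mean, 2254 CPM, in (CC011/UncJ x CC027/GeniUncJ)F1. Its lowest means, 1520 and 1529 CPM, were those of (CC051/TauUncJ x CC059/TauUncJ)F1 and (CC051/TauUncJ x CC060/UncJ)F1, which share the line CC051/TauUncJ.

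Pfkfb3 (ENSMUSG00000026773, chromosome 2, 11471433 to 11554077, minus strand) ran from 194 CPM in (CC002/UncJ x CC043/GeniUncJ)F1 to 444 CPM in (CC001/UncJ x CC042/GeniUncJ)F1. No step in its order exceeded the within-strain SD of 0.7. Pfkfb1 (ENSMUSG00000025271, X chromosome, 150588229 to 150643878, plus strand) had the widest ratio of the 10 genes, 2.82, from 12.8 CPM in (CC042/GeniUncJ x CC040/TauUncJ)F1 to 36.2 CPM in (CC043/GeniUncJ x CC011/UncJ)F1. Its 1 step larger than the within-strain SD was the one below 21.2 CPM, which set (CC042/GeniUncJ x CC060/UncJ)F1, at 13.3 CPM, and (CC042/GeniUncJ x CC040/TauUncJ)F1 apart from the other 18 strains.

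**Figure D2:**
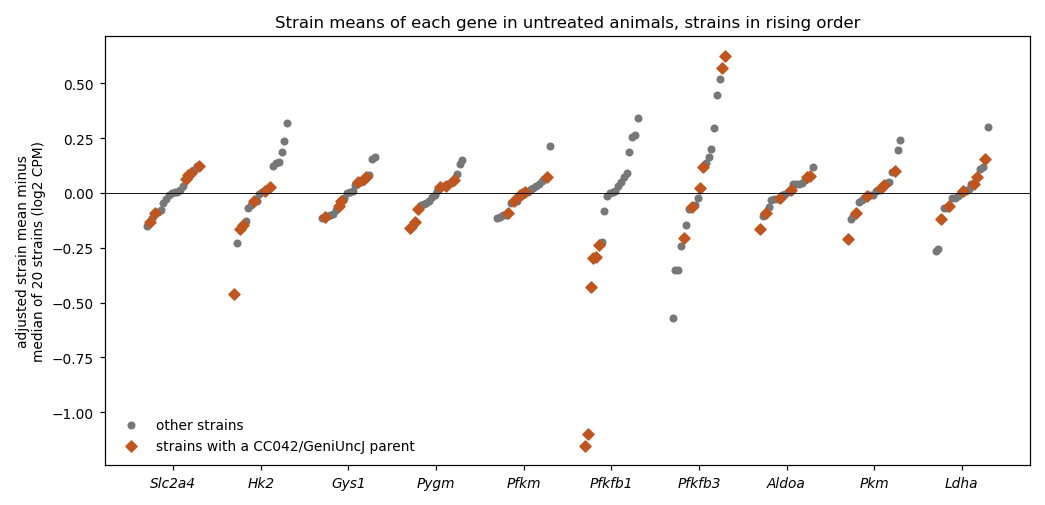
Adjusted strain means of the 10 genes in untreated animals, on the log2 CPM scale relative to the median of each gene's 20 strains, in rising order, with diamonds for strains that have a CC042/GeniUncJ parent. Pfkfb1 spreads furthest, with a highest mean 2.82 times the lowest, and Slc2a4, Gys1 and Aldoa stay within a ratio of 1.22.

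The strains that carry a given parental line were compared with those that do not, for the 7 lines present in at least 3 strains and the 10 genes (70 two-sided exact permutation tests over strains). Strains made with CC042/GeniUncJ had lower Pfkfb1, with a difference of -0.656 on the log2 scale. The 6 such strains lay between 3.68 and 4.6 log2 CPM and the 14 others between 4.61 and 5.18, without overlap. The nearest means of the 2 sets, 4.596 and 4.611, lay closer than the within-strain SD of 0.376. The line comparisons were run for the 10 genes only, so no share over all genes stands beside them. The exact permutation p was 2.58e-05, the smallest this design allows, and the adjusted p 0.00181, with all 6 strains below the other 14. Ldha in strains with CC051/TauUncJ differed by -0.231 (exact permutation p = 0.00263, adjusted p = 0.0819) in untreated animals, where it did not pass. In the animals given metformin that Ldha difference was -0.293 and passed (exact permutation p = 0.000877, adjusted p = 0.0307, 3 strains against 17), and that of Pfkfb1 with CC042/GeniUncJ was -0.73. The Ldha p is the smallest that 3 strains against 17 allow. Strains also share other parental lines, which these permutations did not hold.

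Pfkfb1 further depended on sex and on the place of CC042/GeniUncJ in the name of the cross, a split made after its values were seen. In untreated males of the 2 strains that name CC042/GeniUncJ first, Pfkfb1 was 5.97 CPM at lowest, 7.34 at the median and 12.7 at highest (22 males). Males of the 4 strains that name it second had a lowest value of 18.2, a median of 29.55 and a highest of 39.9 CPM (48 males). Males of the 14 strains without the line ranged from 17.2 to 44.4 CPM with a median of 27.9. The males with CC042/GeniUncJ named first thus lay wholly below the males of both other kinds, and those with it named second overlapped the males without it.

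Females followed another order. Those of strains naming CC042/GeniUncJ first had a lowest, median and highest Pfkfb1 of 13.9, 20.8 and 34.2 CPM (24 females). With the line named second the values were 11.2, 18.5 and 34.05 CPM (49 females). Without it they were 16.9, 31.6 and 55.2 CPM (163 females). Female medians were thus low with the line in either place, and the 3 kinds of female overlapped.

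The male minus female difference was -1.519 and -1.268 on the log2 scale in the 2 strains naming the line first, and males were higher by 0.53 to 0.777 in the 4 naming it second. Over the 14 other strains the male minus female difference ran from -0.541 to 0.043. The test of sex by strain gave an edgeR adjusted p of 4.5e-62 for Pfkfb1. The animals given metformin had male medians of 8.645, 26.4 and 27.3 CPM with the line first, second and absent, female medians of 19.03, 17.9 and 34.1 CPM, and an adjusted p for sex by strain of 2.5e-26. As background, a male has 1 X chromosome, inherited from its mother, and by convention the mother is named first in a cross, which the labels do not state for these strains. Among treated males the lowest value without the line, 9.56 CPM, fell inside the range of males with it named first (5.02 to 10.96 CPM). Without the libraries against their labels the untreated male medians were 7.27, 29.5 and 27.9 CPM. What part the X chromosome of CC042/GeniUncJ has in these values was not tested.

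**Figure D3:**
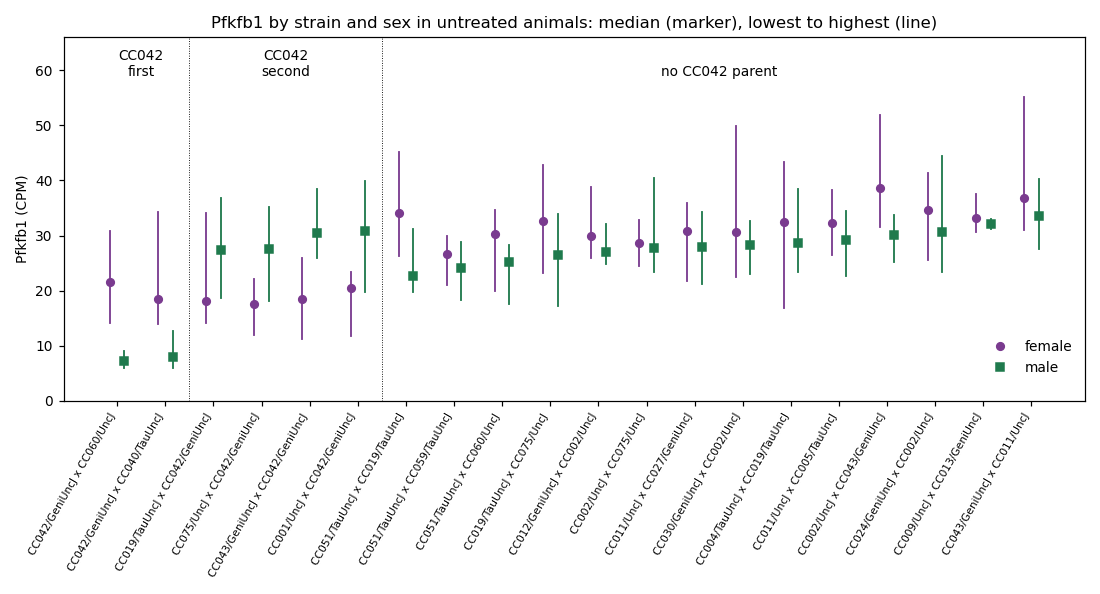
Pfkfb1 CPM (linear axis from 0) of untreated females and males of each of the 20 strains, with strains grouped by the place of CC042/GeniUncJ in the cross (markers are medians, lines join the lowest and highest animal). Males of the 2 strains naming that line first lie at 12.7 CPM or below, and all other males at 17.2 CPM or above.

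Sex by strain also changed 7 of the other 9 genes, in a test added after the data were seen that called 29.4% of all genes. The edgeR adjusted p was 2.4e-05 for Pfkm, 3.2e-05 for Pygm, 3.6e-05 for Slc2a4, 0.00016 for Ldha, 0.0059 for Aldoa, 0.009 for Pfkfb3 and 0.024 for Pkm. Hk2 (adjusted p = 0.11) and Gys1 (adjusted p = 0.98) did not pass. In the animals given metformin, where the test called 22.9% of all genes, 7 of the 10 passed, among them Hk2 (adjusted p = 5.5e-05) but neither Pfkm (adjusted p = 0.065) nor Pkm (adjusted p = 0.28).

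Sex itself changed 9 of the 10 genes, 6 higher in males and 3 lower, in a comparison that called 65.2% of all genes (29.5% higher and 35.7% lower in males), so the count is set against a high background. The median log2 difference of the 10 genes was 0.047, against -0.018 over all genes. Pfkfb3 had the widest difference. Its lowest, median and highest values were 42.1, 264 and 726 CPM in untreated females and 57.03, 372 and 970 CPM in untreated males. The fitted difference was 0.504 ± 0.061 (SE) on the log2 scale, a 1.42-fold higher level in males (edgeR adjusted p = 1.5e-14), and males were higher in 18 of 20 strains.

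Pygm, the enzyme that releases glucose phosphate from glycogen, had a lowest, median and highest value of 3854, 5524 and 6990 CPM in females and of 3695, 6071 and 7992 CPM in males. It was higher in males by 0.13 ± 0.013 (edgeR adjusted p = 1.6e-21) and in 19 of 20 strains. Hk2 was higher in males by 0.113 ± 0.018 (adjusted p = 5.4e-09) and in 17 of 20 strains, with medians of 274 CPM in females and 305 CPM in males. Smaller rises were fitted for Slc2a4 (0.063 ± 0.014), Pfkm (0.063 ± 0.011) and Pkm (0.032 ± 0.012, adjusted p = 0.012). Lower in males were Pfkfb1, by a difference of -0.131 ± 0.035 that averages the strains described above, Aldoa (-0.05 ± 0.015) and Ldha (-0.036 ± 0.014, adjusted p = 0.018). Gys1 differed by 0.01 ± 0.013 and did not pass (adjusted p = 0.52).

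Markers of slow-twitch fibres moved with sex as well. All 8 were lower in males, with a median difference of -0.628 on the log2 scale, and their summed level ran from 1237 to 3713 CPM in untreated females and from 614 to 2283 CPM in untreated males on the 10% fat diet. Of the 10 fast-fibre markers 7 were higher and 3 lower in males, with a median difference of 0.101 and summed levels of 99110 to 152200 CPM in females and 110200 to 156900 CPM in males on that diet. The adipocyte markers were lower in males for 5 of 6, with summed levels of 27.5 to 464 CPM in females and 9.13 to 355 CPM in males on that diet. The part of the fast-fibre markers in these differences was not tested. With the slow-fibre score as a covariate, Gys1 passed (0.089, edgeR adjusted p = 1e-05) and Pfkfb1 (-0.034, adjusted p = 0.6), Ldha (-0.015, adjusted p = 0.57) and Pkm (0.036, adjusted p = 0.069) did not. With the adipocyte score, Pkm did not pass (0.014, adjusted p = 0.35). Without (CC042/GeniUncJ x CC040/TauUncJ)F1 the Pfkfb1 difference was -0.07 (adjusted p = 0.053), and without (CC042/GeniUncJ x CC060/UncJ)F1 it was -0.065 (adjusted p = 0.067).

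Diet changed 3 of the 10 genes in untreated animals, 1 higher and 2 lower on the 44% fat diet, and each moved its level by a few percent. The same comparison called 18.4% of all genes (9.55% higher and 8.82% lower), and the median log2 difference was -0.013 over the 10 genes and -0.002 over all genes. Gys1, which adds glucose units to glycogen, had a lowest, median and highest value of 263, 344 and 530 CPM on the 10% fat diet and of 195, 361 and 513 CPM on the 44% fat diet. The fitted rise was 0.071 ± 0.013 on the log2 scale, 1.05-fold (edgeR adjusted p = 1.8e-06), with 16 of 20 strains higher. The ranges on the 2 diets overlapped almost wholly.

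Slc2a4 went the other way. Its lowest, median and highest values were 246, 352 and 455 CPM on the 10% fat diet and 222, 337 and 444 CPM on the 44% fat diet. The difference was -0.06 ± 0.014 (edgeR adjusted p = 0.00033), to 0.959 of the level, and 17 of 20 strains were lower. Pkm had values of 1525, 1989 and 2719 CPM on the 10% fat diet and 1216, 1955 and 3035 CPM on the 44% fat diet, a difference of -0.04 ± 0.012 (adjusted p = 0.0067), with 16 of 20 strains lower.

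For the other 7 genes the diet difference did not pass. It was -0.029 ± 0.013 for Pygm (edgeR adjusted p = 0.098), 0.027 ± 0.018 for Hk2, 0.019 ± 0.034 for Pfkfb1, -0.013 ± 0.014 for Ldha, -0.012 ± 0.011 for Pfkm and 0.004 ± 0.015 for Aldoa. Pfkfb3, with its wide spread between animals, was at -0.103 ± 0.061 (adjusted p = 0.26). Among marker lists, 4 of 6 adipocyte markers were higher and 2 lower on the 44% fat diet, and 3 of 8 slow-fibre markers were higher. Fast-fibre markers were higher for 1 and lower for 3 of 10 (median difference -0.022), endothelial markers higher for 2 of 4 (0.068) and fibroblast markers lower for 2 of 4 (-0.118), and the part of these 3 lists was not tested. With the adipocyte score as a covariate the differences were 0.075 for Gys1, -0.055 for Slc2a4 and -0.035 for Pkm, and all 3 passed. Among females alone Gys1 (0.047, adjusted p = 0.054) and Slc2a4 (-0.046, adjusted p = 0.1) did not pass, among males alone Pkm (-0.021, adjusted p = 0.49) did not, and in the upper identifier range none of the 3 did.

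The diets were compared again within the animals given metformin, where 10.5% of all genes were called. Slc2a4 was lower on the 44% fat diet, with a difference of -0.12 ± 0.022 on the log2 scale (edgeR adjusted p = 8.6e-06), in 17 of 20 strains. Pkm was lower too, at -0.058 ± 0.019 (adjusted p = 0.028), in 15 of 20 strains. Gys1 stood at 0.046 ± 0.019 (adjusted p = 0.12) with 13 of 20 strains higher. Pfkfb3 stood at -0.179 ± 0.069 (adjusted p = 0.079). The test of metformin by diet did not separate the 2 diet differences of Slc2a4 (-0.057 ± 0.026, adjusted p = 0.6). Within either identifier range alone Pkm did not pass in treated animals, at -0.04 in the lower and -0.085 in the upper range.

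**Figure D4:**
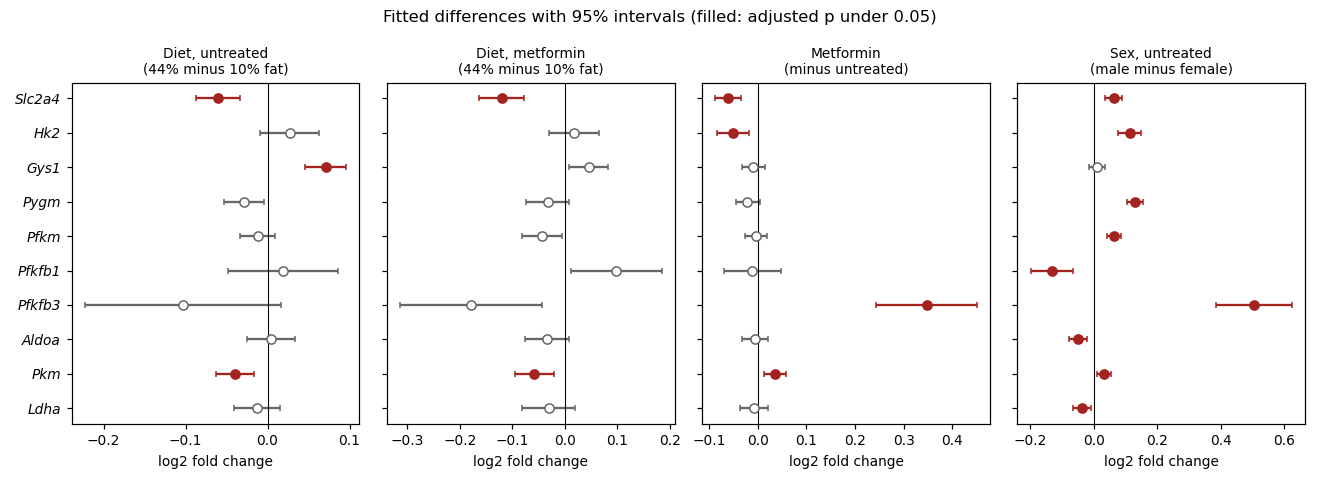
Fitted log2 differences with 95% confidence intervals for diet in untreated and in treated animals, for metformin and for sex (1 panel each, each with its own horizontal scale), 1 row per gene, with filled points for those that passed. For metformin, Pfkfb3 stands at 0.347 and the other 9 genes lie between -0.06 and 0.036.

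Metformin animals differed from untreated animals in 4 of the 10 genes, 2 higher and 2 lower, in a comparison that called 16.2% of all genes (7.01% higher and 9.21% lower). The median log2 difference was -0.008 over the 10 genes and -0.002 over all genes. Pfkfb3, whose product favours the making of fructose 2,6-bisphosphate, had the widest difference. Its lowest, median and highest values were 42.1, 319 and 970 CPM in untreated animals and 94.2, 420 and 963 CPM in treated animals, so the ranges overlapped while the median rose. The fitted difference was 0.347 ± 0.053 on the log2 scale, 1.27-fold (edgeR adjusted p = 2.8e-08, 95% confidence interval 0.244 to 0.45), and 16 of 20 strains were higher.

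The rise of Pfkfb3 stood in the lower identifier range, at 0.475 ± 0.063 (edgeR adjusted p = 1.2e-10), and not in the upper range, at 0.028 ± 0.096 (adjusted p = 0.99). Whether the ranges differ was not tested, and they hold partly different strains: both treatments were present for 15 strains of the lower range and for 11 of the upper. Within sexes the difference was 0.418 ± 0.081 in females and 0.269 ± 0.062 in males.

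Slc2a4 was lower in treated animals, with values of 160, 324 and 433 CPM against 222, 344 and 455 CPM in untreated animals and a difference of -0.06 ± 0.014 (edgeR adjusted p = 0.00037). It was lower in 14 of 20 strains. Hk2 was lower as well, at -0.05 ± 0.017 (adjusted p = 0.024), with values of 162, 272 and 546 CPM in treated and 82.2, 289 and 588 CPM in untreated animals, and in 17 of 20 strains. Both genes that act at the entry of glucose were thus lower in treated animals, by a few percent. Pkm was higher by 0.036 ± 0.011 (adjusted p = 0.016), in 13 of 20 strains.

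The other 6 genes did not pass, with differences of -0.021 ± 0.012 for Pygm, -0.011 ± 0.03 for Pfkfb1, -0.009 for Gys1, -0.007 for Ldha, -0.005 for Aldoa and -0.003 for Pfkm. In the upper identifier range alone none of the 10 genes passed, and Hk2 stood at 0.013. With the adipocyte score as a covariate Pkm did not pass (0.028, edgeR adjusted p = 0.084), whereas Slc2a4 (-0.067), Hk2 (-0.063) and Pfkfb3 (0.333) did. Of the markers, 2 of 6 adipocyte and 2 of 4 fibroblast genes were lower in treated animals (median differences of -0.157 and -0.153). Fast-fibre markers were higher for 2 and lower for 1 of 10, and endothelial markers higher for 1 and lower for 1 of 4. The part of the fibroblast, fast-fibre and endothelial lists was not tested.

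Whether the differences by diet or metformin varied with strain was tested by interaction terms. For diet by strain, 3.27% of all genes passed and 1 of the 10, Hk2 (edgeR adjusted p = 0.017). The diet difference of Hk2 was above 0 in 10 strains and below it in the other 10. In (CC019/TauUncJ x CC042/GeniUncJ)F1 its lowest, median and highest values were 210, 265 and 381 CPM on the 10% fat diet and 82.2, 253 and 312 CPM on the 44% fat diet, a difference of -0.287. In (CC043/GeniUncJ x CC042/GeniUncJ)F1 they were 230, 272 and 308 CPM on the 10% fat diet and 273, 320 and 381 CPM on the 44% fat diet, a difference of 0.257. These 2 strains stand at the ends of the 20, and in both the animals of the 2 diets overlapped. The 82.2 CPM was the lowest Hk2 value of all libraries, and how far it sets the -0.287 was not tested. In that strain the medians, 265 and 253 CPM, lay close together. The strain next to it in the order was (CC024/GeniUncJ x CC002/UncJ)F1, at -0.229.

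For metformin by strain, 8.89% of all genes passed and 1 of the 10, Pfkfb3 (edgeR adjusted p = 0.02). Its difference ran from -0.225 in (CC019/TauUncJ x CC075/UncJ)F1 to 1.138 in (CC012/GeniUncJ x CC002/UncJ)F1. In the second strain, untreated animals had a lowest, median and highest value of 133, 385 and 596 CPM on the 10% fat diet and of 42.1, 148 and 499 CPM on the 44% fat diet. Treated animals of that strain had 461, 541 and 849 CPM on the 10% fat diet and 297, 404 and 542 CPM on the 44% fat diet. Treated medians thus exceeded untreated ones on both diets. Metformin and age cannot be told apart in this interaction either. Within the lower identifier range alone the interaction of Pfkfb3 did not pass (adjusted p = 0.47), and without the libraries against their labels Gys1 (adjusted p = 0.035) and Pygm (adjusted p = 0.047) passed beside Pfkfb3 (adjusted p = 0.037).

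None of the 10 genes passed for diet by sex, metformin by diet or metformin by sex in edgeR, and none passed in limma voom. At an unadjusted p under 0.05 the edgeR counts were 2, 1 and 2. Over all genes, 0.226% passed for diet by sex, 0.00564% for metformin by diet and 1.87% for metformin by sex.

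The 98 other genes of these pathways, 96 of them tested, were taken from a list by role. For diet 20 were higher, 21 lower and 55 did not pass, against 9.55% higher and 8.82% lower of all genes tested. All 7 genes of glycogen breakdown that passed, of 13, were lower on the 44% fat diet, among them Pygl, the liver form of glycogen phosphorylase, at -0.64 ± 0.086 on the log2 scale. Of 10 genes of hexose phosphorylation and the pentose phosphate pathway 5 were lower and 1 higher, with Tkt, transketolase, at -0.734 ± 0.077. Pygl and Tkt were low, with means of 5.21 and 20.9 CPM over all libraries, and the part of the adipocyte markers in them was not examined. Of 16 genes of lactate and pyruvate handling 7 were higher and 1 lower, with Pdk4, a kinase that turns off pyruvate dehydrogenase, at 0.32 ± 0.091 (edgeR adjusted p = 0.005). Fbp2, the muscle fructose bisphosphatase, was at 0.268 ± 0.034, Tbc1d1, a Rab GTPase-activating protein that holds back GLUT4 traffic, at 0.216 ± 0.038, and Ppp1r3b, a glycogen-targeting subunit of protein phosphatase 1, at -0.405 ± 0.072. The genes named here were picked for the widest differences among those that passed. Their sizes therefore cannot be set against those of Gys1, Slc2a4 and Pkm. Over all 96 genes the median difference was 0.008.

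For metformin 8 of the 96 were higher, 23 lower and 65 did not pass, against 7.01% higher and 9.21% lower of all genes tested. The list of lactate and pyruvate handling had 8 of 16 lower and none higher, and that of regulators 5 of 15 lower and 1 higher. Lower were Fbp2, at -0.172 ± 0.031, Ppp1r3c, another glycogen-targeting subunit, at -0.174 ± 0.058 (edgeR adjusted p = 0.024), and Nr4a3, an orphan nuclear receptor, at -0.356 ± 0.126 (adjusted p = 0.036). Slc2a3, a high-affinity glucose transporter, stood at -0.194 ± 0.035 and Ppp1r3f, of the same family as Ppp1r3c, at -0.14 ± 0.035. Txnip, an arrestin-like inhibitor of glucose uptake, was higher by 0.145 ± 0.026. These genes, too, were picked for the widest differences among those that passed. Their sizes therefore cannot be set against that of Pfkfb3. In treated animals the diet comparison called 8 higher and 19 lower of the 96, against 10.5% of all genes called.

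Sex called 42 of the 96 higher and 37 lower in males, against 29.5% higher and 35.7% lower of all genes. Slc2a3 stood at 1.984 ± 0.04 on the log2 scale, male minus female, the widest among those at 1 log2 CPM or more. The next were all lower in males: Ppp1r3d, a glycogen-targeting subunit, at -0.957 ± 0.035, Tbc1d1 at -0.878 ± 0.038, Tkt at -0.816 ± 0.078, Pygl at -0.699 ± 0.086 and Nr4a3 at -0.68 ± 0.135. Of 16 genes of lactate and pyruvate handling 12 were higher in males and 3 lower, and of 13 genes of glycogen breakdown 8 were higher and 5 lower. The part of the adipocyte markers in the sex differences of these other pathway genes was not examined either. Markers of blood and of macrophages did not pass in any of the 4 comparisons of diet, metformin and sex.

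Several of the 10 genes varied together from animal to animal once strain, sex, diet and range were removed as additive terms. Over all untreated animals, 35 of the 45 pairs passed for Pearson's r of the residuals (100000 permutations, adjusted over the 45 pairs), 32 of them positive, and 37 passed for Spearman's rho. With this many animals a weak r passes: the smallest was 0.103 in size, and 62.4% of all pairs among 6881 genes reached it, so the 35 pairs (77.8%) are set against a high background. The median size of r was 0.247 over the 45 pairs and 0.143 over all pairs. The closest pair was Pkm and Ldha, with r = 0.805 and rho = 0.77 (permutation p = 1e-05 for both, the smallest these permutations can give, and r = 0.787 without the 2 animals farthest from the median of Pkm). Aldoa and Ldha followed at r = 0.716 (rho = 0.723), Pygm and Pfkm at 0.703 (rho = 0.652), Pfkm and Pkm at 0.689 (rho = 0.648), and Pygm and Pkm at 0.682 (rho = 0.666), all with the same permutation p of 1e-05 for r. The 3 negative pairs that passed for r were those of Hk2 with Aldoa (r = -0.247, rho = -0.217), with Pfkfb3 (r = -0.211, rho = -0.255) and with Ldha (r = -0.208, rho = -0.203). For rho alone, Hk2 with Pkm (rho = -0.126, permutation adjusted p = 0.0089) and Slc2a4 with Pfkfb3 (rho = -0.11, adjusted p = 0.02) were negative and passed as well. The transporter and the enzymes of the main chain were thus positively related, and Hk2 went slightly against some of them. For r, Pfkfb3 did not pass with Slc2a4, Gys1, Pfkfb1, Aldoa or Ldha.

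The points share library preparation and depth, and the fast-fibre markers moved with several of these genes: their score had r = 0.621 with Pfkm, 0.591 with Pygm and 0.585 with Pkm, whereas the slow-fibre score reached no more than 0.267 in size with any of the 10. The part of the fast-fibre score in the pairs was not tested, nor that of age, which is mixed among untreated animals. With the slow-fibre score removed as well, 35 pairs passed. In the animals given metformin 32 pairs passed, 28 of them positive.

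**Figure D5:**
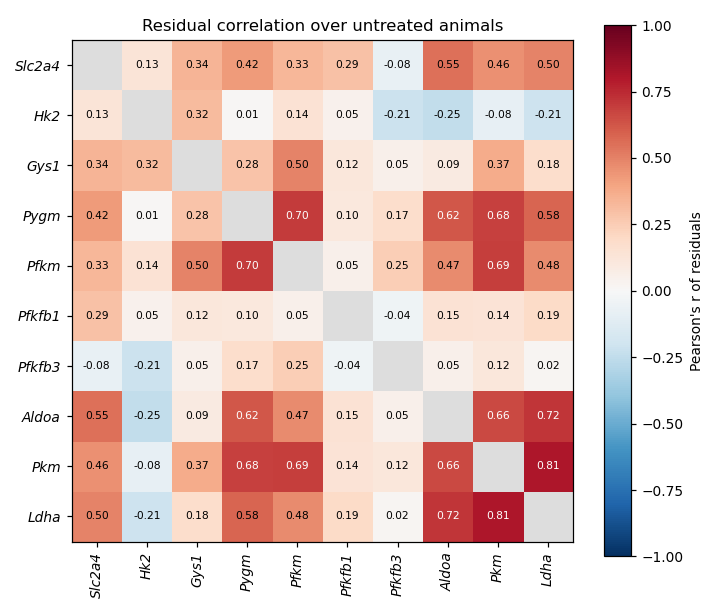
Pearson's r between the 10 genes over untreated animals after removal of strain, sex, diet and identifier range; colour gives r from -1 to 1. The block of Aldoa, Pkm, Ldha, Pfkm and Pygm is positive throughout, and Hk2 is negative with Aldoa, Pfkfb3 and Ldha.

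Over 6881 well-expressed genes, the one most like Ldha in these residuals was Tpi1, triosephosphate isomerase, at r = 0.892, followed by Eno3, the muscle enolase, at 0.875. Aldoa was most like Myoz1, a Z-disc protein of fast fibres, at 0.86 and Ckm, muscle creatine kinase, at 0.837. For Pygm it was Atp2a1, the calcium pump of fast fibres, at 0.805. Gys1 was most like Ogdh, a subunit of the oxoglutarate dehydrogenase complex, at 0.682, Slc2a4 most like Fem1a at 0.669 and Slc16a3, a lactate transporter, at 0.668, and Pfkfb3 most like Bhlhe40, a repressor tied to the circadian clock, at 0.602. Hk2 was most like Fry, at 0.602. For Pfkfb1 the closest was Asb11, at 0.387, in residuals that still held its sex by strain pattern. With that pattern removed too, an alternative added after the data were seen, the closest was Fhl3, a LIM-domain protein, at 0.473.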

How the data were processed

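Gastrocnemius RNA-seq libraries, 1 per animal, were analysed as deposited. The authors joined both reads of each pair as single-end reads, aligned them to a transcriptome of the 8 founders and estimated expected counts per gene with EMASE in the GBRS package, and the deposited expected counts are whole numbers. A second deposited table holds the authors' variance-stabilised values on a log2-like scale, which served as an alternative. GRCm38 and DESeq2 are named in the submitters' processing notes, versions not given in the sources used here. The 10 genes, the other pathway lists and the marker lists were chosen with earlier results of these data known.

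Expected counts were scaled by TMM and filtered with filterByExpr over the 8 groups, which left 16384 genes in untreated animals, 16418 in treated animals and 17740 in all animals. Differences were tested with edgeR 4.0.16 in R 4.3.3 (quasi-likelihood F test, with Benjamini-Hochberg adjustment over all genes tested and a threshold of 0.05), with strain, sex, diet, identifier range and, across treatments, metformin as terms; SE is the log2 difference divided by the square root of F. CPM in the text is the TMM-scaled level, and log2 CPM uses a prior count of 2. Levels per kilobase use exon lengths of GENCODE M21, which held 19003 of the 19088 gene IDs; 15289 had the same start and end, Gys1, Pfkm and Aldoa not among them, so their lengths are less certain. Shares of variance are omega squared on log2 CPM, with no test. Libraries were set against their labels by the level of Xist and by correlation with the strain means.

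All 10 genes are named in each comparison. Of the 98 other pathway genes, up to 6 called genes with the widest differences are named per comparison, if their mean level was 1 log2 CPM or more. The genes most like a member were those with the highest r of residuals among those at 3 log2 CPM or more on average. Alternatives were DESeq2 1.42.0, limma 3.58.1 (voom, variance-stabilised values, and limma-trend without each strain), other filters and scalings, marker scores as covariates, and subsets by sex, diet, identifier range or label check. The interaction of sex and strain was added after the data were seen. The diet fit in untreated animals was tested on simulated counts. It called 36 of 50 genes changed by 0.1 on the log2 scale and 46 of 50 changed by 0.2. The other fits and tests were not tried on simulated counts. Library totals were at least 27.4 M counts. Differences within a strain were taken within each level of the other factors (sex, diet or both) and then averaged.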

Additional observations from a re-analysis of the deposited data

Results flagged for a closer look

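For 2 of the 10 genes a diet or metformin difference depended on strain. The metformin difference cannot be told apart from one of age. The diet difference of Hk2 depended on strain (edgeR interaction, adjusted p = 0.017), with 10 strains above 0 and 10 below. The metformin difference of Pfkfb3 depended on strain (adjusted p = 0.02), with 16 of 20 strains above 0, but not in the lower identifier range alone (adjusted p = 0.47).

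The difference between males and females depended on strain for 8 genes, in a test added after the data were seen. The edgeR adjusted p for sex by strain was 4.5e-62 for Pfkfb1, 2.4e-05 for Pfkm, 3.2e-05 for Pygm, 3.6e-05 for Slc2a4, 0.00016 for Ldha, 0.0059 for Aldoa, 0.009 for Pfkfb3 and 0.024 for Pkm. The Pfkfb1 difference, male minus female, taken within each diet and averaged over both diets, ran from -1.519 to 0.777 on the log2 scale over the 20 strains, that of Pfkfb3, taken in the same way, from -0.157 to 1.523, that of Pygm from -0.012 to 0.321 and that of Slc2a4 from -0.107 to 0.273.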

How the results depend on the processing

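Of 1100 alternative values for the differences of the 10 genes, 1005 kept direction and side of the threshold, 47 no longer passed, 4 newly passed and 44 changed sign; 1 sign change was of a difference that had passed, Hk2 with metformin, at 0.013 in the upper identifier range. The number of genes that passed was 1 for diet in females alone and 0 in the upper range; 1 in either range for diet in treated animals; for metformin 2 in females, 2 in males, 1 on the 10% fat diet, 2 on the 44% fat diet and 0 in the upper range; for sex 4 and for strain 7 in the upper range; and for metformin by strain 0 in the lower range and 3 without the libraries against their labels. Line differences that passed numbered 2 in treated animals, with no share over all genes to set beside them. With 1 strain left out (limma-trend) the number ranged from 3 to 4 for diet, 3 to 4 for metformin and 8 to 9 for sex. Among metformin differences, Hk2 no longer passed without (CC001/UncJ x CC042/GeniUncJ)F1 (-0.044), (CC002/UncJ x CC043/GeniUncJ)F1 (-0.04) or (CC012/GeniUncJ x CC002/UncJ)F1 (-0.039), and Pkm without (CC011/UncJ x CC027/GeniUncJ)F1 (0.032) or (CC030/GeniUncJ x CC002/UncJ)F1 (0.031). The cause was not tested.

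The other sign changes were of values that did not pass. For diet they were Hk2 in females (-0.018), Pfkfb1 (-0.013) and Ldha (0.001) in males, Pfkm (0.001) and Aldoa (-0.004) in the upper range, and Aldoa without the libraries against their labels (-0.003) and from -0.007 to 0.005 with 1 strain left out. For metformin they were Pfkfb1 (0.031), Aldoa (0.011) and Ldha (0.018) in females; Gys1 (0.024) and Pfkm (0.019) in males; Gys1 (0.008), Pfkm (0.015) and Aldoa (0.015) on the 10% fat diet; Pfkfb1 (0.025) on the 44% fat diet; Gys1 (0.007) and Aldoa (0.007) in the lower range; Pygm (0.008), Pfkm (0.019), Pfkfb1 (0.032) and Ldha (0.039) in the upper range; and Aldoa without the libraries against their labels (0.004). With 1 strain left out, Pfkfb1 ran from -0.012 to 0.006, Aldoa from -0.014 to 0.003 and Ldha from -0.017 to 0.001. For sex, Gys1 was -0.008 with the adipocyte score, -0.014 among genes of at least 5 CPM, -0.021 on the 10% fat diet and -0.034 in the upper range.

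No paired analysis was possible because the labels give every animal replicate number 1, so no number links animals across groups.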
